A study of Mus musculus with 9 samples.

Results

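Postsynaptic scaffolds, the kinase and actin regulators bound to them, and the adhesion molecules that hold the synapse together were followed here as 45 genes chosen by symbol. The choice was made with earlier results of these data known. The table held 18275 genes, and all 45 had a mean of at least 10 normalised counts over the 9 libraries, the limit that left 16196 genes to be tested. RNA came from the dissected hippocampus of male mice of strain C57BL/6N aged 11 to 15 weeks, with 1 library for each of 4 Nestin;BrafKE/+ and 5 Braf+/+ animals. The knockin allele of the mutants had been made in embryonic stem cells of mixed strain background. Nestin;BrafKE/+ mice carry 1 floxed knockin Braf allele with the K499E (KE) mutation, which makes the kinase constitutively active. The mutant allele is expressed from the endogenous Braf promoter after recombination by Nestin-Cre. Nestin-Cre acts in embryonic neural stem cells, so neurons and glia that descend from them can both carry the active allele. The Braf+/+ animals were littermates, and whether they carried Cre is not given in the sources used here. Library names carried 4 prefixes, which were grouped here into 3 series, with 2 prefixes joined in A. The series were A (1 mutant and 3 controls), B (2 mutants and 1 control) and C (1 mutant and 1 control). The main fit includes the series. Leaving out the only mutant or only control of a series therefore takes that whole series out of the genotype comparison. These libraries are Nestin;BrafKE/+ replicate 1 (A), Braf+/+ replicate 4 (B) and either library of C.

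At an excitatory synapse the MAGUK proteins of the Dlg family bind glutamate receptors and adhesion molecules in the postsynaptic membrane. Dlgap proteins link them to Shank and Homer proteins, which form the deeper scaffold and meet the actin of the dendritic spine. The kinase CaMKII is a main component of this density and is required for hippocampal long-term potentiation. Across the cleft, presynaptic neurexins bind neuroligins and Lrrtm proteins, and secreted pentraxins and cerebellins cluster receptors from outside the cell. ERK signaling acts on dendritic spines and on transcription in neurons, and the comparison asked whether the messenger RNAs of this machinery differed in the mutant hippocampus.

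The synaptic scaffold and adhesion transcripts differed little between the genotypes. Of the 45 genes, 1 passed an adjusted p of 0.05 in limma, Il1rapl1, which fell, and none rose. That is 2.22% of the members, against 2.88% of all genes tested (1.52% higher and 1.36% lower). The log2 fold changes of the members ran from -0.43 for Il1rapl1 to 0.46 for Lrrtm3, and the median of their sizes was 0.08, against 0.12 over all genes tested. Noise adds to such sizes, and the median SE was 0.06 for the members against 0.10 over all genes. The 2 medians are therefore not like for like. An unadjusted p under 0.05 was found for 11 members (24.4%), against 18.5% of all genes. Mutant and control ranges were separate for 6 members (13.3%), against 15.7% of all genes. These shares lay near the background, so the counts are no result about the set.

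The precision was enough to bound most changes. The 95% interval of the log2 fold change came from limma and was not adjusted for the number of genes. It lay within 0.5 of 0 for 39 members and within 0.25 of 0 for 25. Over all 16196 genes tested these counts were 10389 and 4172. The interval excluded 0 for 11 members, and for 2991 of all genes. The 6 members whose intervals reached further than 0.5 from 0 were Il1rapl1, Camk2n1, Lrrtm3, Lrrtm4, Cbln1 and Cbln4. The sign was the same in the 3 series for 17 members (37.8%), against 36.6% of all genes.

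**Figure D1:**
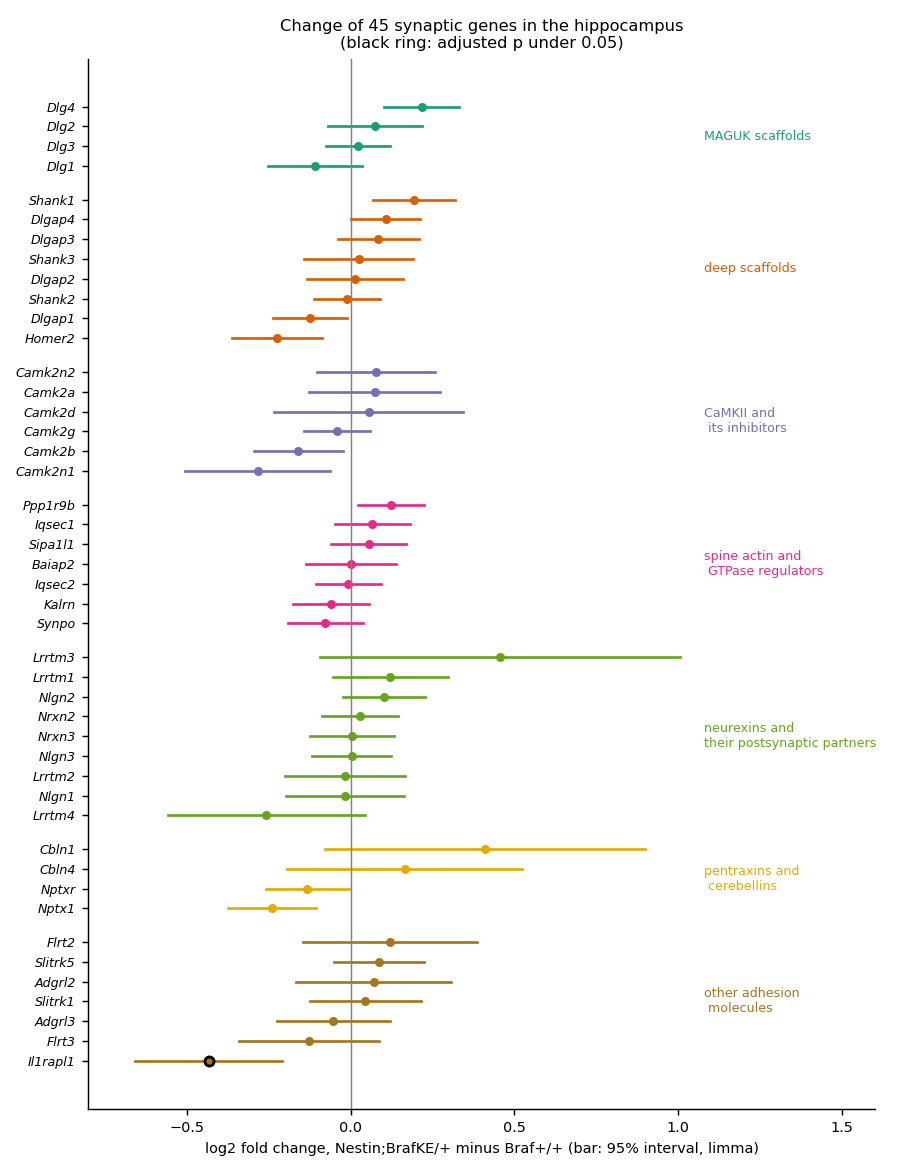
Log2 fold change of each of the 45 genes on the x axis (Nestin;BrafKE/+ minus Braf+/+, log2(value + 1) scale), with bars for the 95% interval of limma, grouped and coloured by role. Il1rapl1 alone carries the ring for an adjusted p under 0.05, and most points lie within 0.25 of 0.

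Facts of the whole data set that touch these values are few. Library totals ran from 19551312 to 20091532 normalised counts. The targeted gene Braf stood between 2145 and 2469 in the mutant libraries and between 2635 and 3030 in the controls, without overlap. Hippocampal markers were present, with a mean of at least 10 for 7 of 7 dentate granule, 6 of 6 CA1 and 8 of 9 CA2 and CA3 symbols; the ninth, Pvrl3, is an older symbol of Nectin3, which was listed as well. Among the markers of other cells, all 10 oligodendrocyte genes were higher in the mutant and 4 of them passed, with summed levels of 129016 to 139159 in the mutant and 94429 to 114552 in the controls. Of 12 astrocyte genes 10 were higher and 3 passed (119130 to 132813 against 111125 to 124978), and of 6 CA1 genes 6 were higher and 2 passed (14473 to 14849 against 11630 to 12468). Choroid plexus genes summed to between 4475 and 391947 in the controls, highest in Braf+/+ replicate 2, and to between 1409 and 24189 in the mutant. The part of these differences in the synaptic values was not tested. In bulk tissue, fewer cells of a type and less RNA per cell cannot be told apart.

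Among the adhesion molecules outside the neurexin group, Il1rapl1 was the 1 member that passed. It encodes a receptor-like protein of the postsynaptic membrane that binds the presynaptic phosphatase Ptprd and organizes excitatory synapses, and its human counterpart is a gene of X-linked intellectual disability. The gene, ENSMUSG00000052372, lies on chromosome X from 85784476 to 87159281 on the minus strand of GRCm39. It was the least abundant member per length, at 22.1 normalised counts per kb of exon. Its values in Nestin;BrafKE/+ replicates 1 to 4 were 175.7, 170.9, 165.7 and 179.5 normalised counts. In Braf+/+ replicates 1 to 5 they were 225.5, 221, 251.9, 246.1 and 225.2. Every mutant library lay below every control, and the gap between the groups was wider than the range within the mutant group.

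Il1rapl1 fell from 233.9 ± 14.0 (SD, n = 5) to 172.9 ± 5.96 (SD, n = 4) normalised counts. This was a ratio of 0.741, or -0.43 ± 0.10 (SE) on the log2 scale, with a limma adjusted p of 0.0497. A two-sided exact permutation test gave p = 0.00794, and p = 0.0417 when labels were exchanged within series alone; neither test can give a smaller p. Series A, B and C gave differences of -0.40, -0.55 and -0.33. The call rested on the threshold: leaving out any 1 of the 9 libraries ended it, with adjusted p-values from 0.0698 to 0.235, while the log2 fold change stayed between -0.47 and -0.37. Of the other 6 genes in this group none passed. An unadjusted p under 0.05 in limma, which 18.5% of all genes had, was found for 0 of these 6. They include Slitrk1 and Slitrk5, Flrt2 and Flrt3, and the latrophilins Adgrl2 and Adgrl3, whose log2 fold changes ran from -0.13 for Flrt3 to 0.12 for Flrt2. Slitrk1, an adhesion protein that also binds presynaptic phosphatases, was the most abundant of the group per length (251 per kb of exon) and had a log2 fold change of 0.05 (95% interval -0.12 to 0.22).

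The promoter of Il1rapl1 is shown because this gene was the 1 member past the threshold, and that of Shank3 because it held the single motif match among the members. RefSeq promoter windows on GRCm38.p6, taken here as the 250 bases before each start, were found for 32 of the 45 genes, 51 windows in all. Motifs of transcription factors that act downstream of ERK were searched on both strands. The ETS motif CCGGAAG was in 0 of the 51 windows, against 6.91% of all windows, and the cyclic AMP response element TGACGTCA in 0, against 1.55%. The EGR motif GCGTGGGCG was in 1 (1.96%), against 0.536% of all windows. A match or its absence describes these letters only. Capitals mark the EGR match, which lies on the reverse strand and starts 146 bases before the Shank3 start, and the Il1rapl1 window (chrX:88115949-88116198, minus strand) has none. The Shank3 window is chr15:89499358-89499607 on the plus strand.
Il1rapl1: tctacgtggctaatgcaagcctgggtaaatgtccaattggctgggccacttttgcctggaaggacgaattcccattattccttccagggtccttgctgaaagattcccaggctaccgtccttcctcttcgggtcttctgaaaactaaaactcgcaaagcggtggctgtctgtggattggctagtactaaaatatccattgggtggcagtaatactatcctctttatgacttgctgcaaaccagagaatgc
Shank3: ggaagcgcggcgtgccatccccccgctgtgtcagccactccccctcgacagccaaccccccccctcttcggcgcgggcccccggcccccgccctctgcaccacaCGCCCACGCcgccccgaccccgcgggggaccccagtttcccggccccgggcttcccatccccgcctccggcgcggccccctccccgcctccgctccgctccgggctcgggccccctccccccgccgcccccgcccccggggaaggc

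Of the 4 MAGUK scaffolds, 3 were higher and 1 lower in the mutant, and none passed. Dlg4, which encodes the PSD-95 scaffold of glutamate receptors, came nearest, just outside the threshold. Its values in Nestin;BrafKE/+ replicates 1 to 4 were 16327, 17612, 16933 and 16493 normalised counts. In Braf+/+ replicates 1 to 5 they were 14554, 13986, 15328, 13763 and 14783. The 4 mutant libraries lay above all 5 controls. On the log2 scale Dlg4 differed by 0.22 ± 0.05 (SE; limma adjusted p = 0.0510), with 0.16, 0.33 and 0.16 for series A, B and C and a within-series exact permutation p of 0.0417. Its limma adjusted p depended on the fit: it was 0.0453 with a minimum mean of 50 and 0.0048 without the series term. It was 0.0474 without Braf+/+ replicate 3, and 0.246 without Braf+/+ replicate 4 and so without the contrast of series B. Dlg1, known for trafficking of receptors, had the lowest value of the group (log2 fold change -0.11, 95% interval -0.25 to 0.04). It was -0.062 without Braf+/+ replicate 4, and so without the contrast of series B. Dlg2 and Dlg3 stood at 0.07 and 0.02.

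Per length Dlg4 was the most abundant Dlg gene, at 1172 normalised counts per kb of exon, against 147 for Dlg1. It took 51.8% ± 1.28 (SD, n = 4) of the summed Dlg level per kb in the mutant and 48.4% ± 1.89 (SD, n = 5) in the controls, and these ranges overlapped. The share of Dlg3 was 26.3% ± 0.48 (SD, n = 4) against 28.1% ± 0.72 (SD, n = 5), without overlap. That of Dlg1 was 5.75% ± 0.27 (SD, n = 4) against 6.74% ± 0.46 (SD, n = 5), again without overlap. A share in a family also moves with the levels of its other genes. Dlg3 itself had a log2 fold change of 0.02, and its normalised counts overlapped between the groups. With the length of the canonical transcript in place of all exons, Dlg4 took 60.5% in the mutant and 57.2% in the controls.

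Of the 8 deep scaffold genes 5 were higher, 3 were lower and none passed. An unadjusted p under 0.05 in limma was found for 4 of the 8, against 18.5% of all genes. The group was not tested as a set. Homer2, one of the coiled-coil proteins that tie Shank to metabotropic glutamate receptors and calcium channels, had the lowest fold change. Its values were 1746, 1621, 1818 and 1759 normalised counts in Nestin;BrafKE/+ replicates 1 to 4. In Braf+/+ replicates 1 to 5 they were 2155, 2036, 1880, 2070 and 2000. The groups did not overlap, and the highest mutant library and the lowest control were close. On the log2 scale the difference for Homer2 was -0.22 ± 0.06 (SE; limma adjusted p = 0.0823), and series A, B and C gave -0.21, -0.27 and -0.19.

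Shank1, a master scaffold of mature spines, had the highest fold change among the deep scaffolds. It stood at 9509, 9209, 9316 and 8543 normalised counts in the mutant libraries, and at 8246, 7522, 7875, 7777 and 8547 in the controls. The groups overlapped through Nestin;BrafKE/+ replicate 4 and Braf+/+ replicate 5, the 2 libraries of series C. Shank1 differed by 0.19 ± 0.06 (SE) on the log2 scale (limma adjusted p = 0.101), with 0.27 and 0.25 for series A and B and a value near 0 for C. Dropping either library of series C raised the log2 fold change to 0.26 and took it past the threshold, at an adjusted p of 0.0387 without the mutant and 0.0388 without the control. When other libraries were left out its adjusted p reached 0.368.

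Shank2 and Shank3, paralogs of Shank1 that are linked to autism in humans, had log2 fold changes of -0.01 (95% interval -0.11 to 0.09) and 0.02 (-0.14 to 0.19). Shank1 made up 50.7% ± 0.99 (SD, n = 4) of the Shank level per kb of exon in the mutant and 47.6% ± 1.48 (SD, n = 5) in the controls, ranges that did not overlap. Dlgap1 was 12275, 11417, 11543 and 12048 normalised counts in the mutant libraries and 13206, 12266, 12652, 13647 and 12634 in the controls. Only Nestin;BrafKE/+ replicate 1 reached into the control range, just above Braf+/+ replicate 2. The difference for Dlgap1 was -0.12 ± 0.05 (SE) on the log2 scale (limma adjusted p = 0.228). It was -0.057 (limma adjusted p = 0.684) without Braf+/+ replicate 4, and so without the contrast of series B. Dlgap4, another linker between Dlg and Shank proteins, stood at 0.11 on the log2 scale (limma adjusted p = 0.260), and its lowest mutant library lay just above its highest control. Dlgap2 and Dlgap3 stood at 0.01 and 0.08. Within the Dlgap family the share of Dlgap1 per kb of exon was 33.6% in the mutant against 36.9% in the controls, and that of Dlgap4 was 26.1% against 24.4%, both without overlap. Dlgap3 was the largest by share in the mutant on this scale (35.7%), whereas per canonical transcript Dlgap1 was the largest, at 49.4%.

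**Figure D2:**
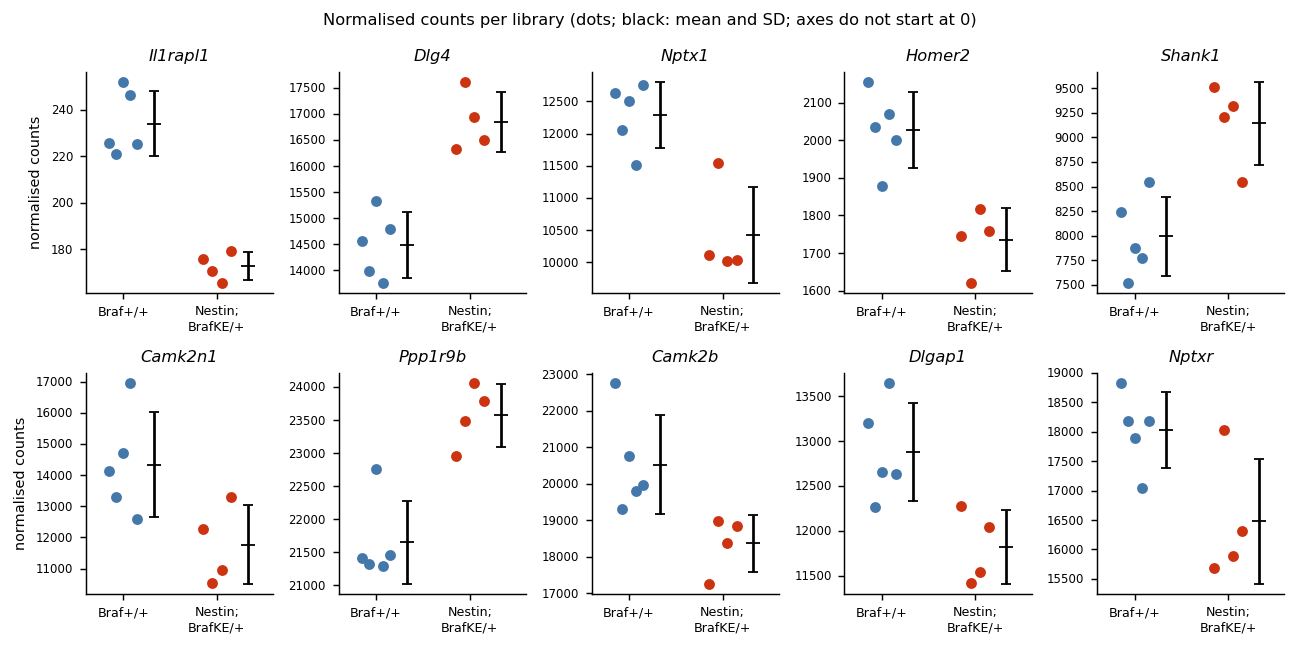
Normalised counts (y axis, not starting at 0) of Il1rapl1 and of the 9 members with the next smallest p-values, 1 dot per library for 5 Braf+/+ and 4 Nestin;BrafKE/+ animals, with the mean and SD in black. The groups are separate for Il1rapl1, Dlg4, Homer2, Ppp1r9b and Camk2b, and they overlap for Nptx1, Shank1, Camk2n1, Dlgap1 and Nptxr.

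CaMKII and its inhibitors made up 6 members, 3 higher and 3 lower, and none passed. Camk2a, the alpha subunit of neurons and a long-standing subject of memory research, was the most abundant member of all per length, at 9144 normalised counts per kb of exon. It stood between 84100 and 106029 normalised counts in the mutant and between 75179 and 91260 in the controls, with Nestin;BrafKE/+ replicate 2 above the rest. Its log2 fold change was 0.07 (95% interval -0.13 to 0.27), and series A, B and C gave -0.06, 0.36 and -0.10. The sign turned without Braf+/+ replicate 4, and so without the contrast of series B (-0.078).

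Camk2b, the beta subunit, which binds actin, was lower without overlap between the groups. Its values were 17260, 18979, 18368 and 18839 normalised counts in the mutant libraries, and 22762, 19309, 20747, 19798 and 19964 in the controls. Braf+/+ replicate 1 was the highest library and Nestin;BrafKE/+ replicate 1 the lowest. Camk2b differed by -0.16 ± 0.06 (SE) on the log2 scale (limma adjusted p = 0.20), and its sign was shared by the 3 series. It shrank to -0.084 (limma adjusted p = 0.619) without Nestin;BrafKE/+ replicate 1, and so without the contrast of series A. Camk2g and Camk2d, subunits found in many tissues, stood at -0.04 and 0.06. Of the summed level of the 4 subunits per kb of exon, Camk2a took 84.9% ± 1.18 (SD, n = 4) in the mutant and 83.0% ± 1.02 (SD, n = 5) in the controls, and Camk2b 11.6% ± 0.87 and 13.3% ± 0.86, with overlap in both. Per canonical transcript the share of Camk2b was 26.1% in the mutant and 29.2% in the controls.

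Camk2n1 encodes a small protein that binds active CaMKII and inhibits it. It was 12281, 10552, 10962 and 13293 normalised counts in the mutant libraries, and 14135, 13299, 14705, 16957 and 12588 in the controls. The groups overlapped, and Braf+/+ replicate 4 was the highest of all. For Camk2n1 the log2 difference was -0.28 ± 0.10 (SE; limma adjusted p = 0.163), and the values of series A, B and C were -0.19, -0.66 and 0.08. It shrank to -0.084 without Braf+/+ replicate 4, and so without the contrast of series B. The other inhibitor, Camk2n2, stood at 0.08 (95% interval -0.10 to 0.26), and Camk2n1 held 90.4% of their summed level per kb in the mutant and 92.4% in the controls.

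Among the 7 regulators of spine actin and small GTPases, 4 were higher and 3 lower, none passed, and every log2 fold change was between -0.08 for Synpo and 0.12 for Ppp1r9b. Ppp1r9b encodes spinophilin, which brings protein phosphatase to the spine and binds actin, and it was the most abundant of the group per length (4328 per kb of exon). Its values were 22949, 23489, 24061 and 23784 normalised counts in the mutant libraries, and 21420, 21322, 22758, 21287 and 21463 in the controls. The groups did not overlap, since Braf+/+ replicate 3, well above the other controls, still lay below the lowest mutant library. Ppp1r9b differed by 0.12 ± 0.05 (SE) on the log2 scale (limma adjusted p = 0.182), and series A, B and C gave 0.07, 0.16 and 0.15. Synpo, which encodes synaptopodin of the spine apparatus, had a 95% interval of -0.19 to 0.04. It stood at -0.024 without Nestin;BrafKE/+ replicate 1, and so without the contrast of series A. The exchange factors Kalrn, Iqsec1 and Iqsec2, the Rap regulator Sipa1l1 and the actin adaptor Baiap2 had log2 fold changes from -0.06 for Kalrn to 0.07 for Iqsec1.

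The 9 neurexins, neuroligins and Lrrtm genes included 6 that were higher and 3 that were lower. None had an unadjusted p under 0.05 in limma, against 18.5% of all genes. Nrxn2 and Nrxn3, the presynaptic partners, stood at 0.03 (95% interval -0.09 to 0.14) and 0.00 (-0.12 to 0.13). Nlgn2, the neuroligin of inhibitory synapses, was the most abundant of the group per kb of exon, at 704 normalised counts. Per kb of canonical transcript Nrxn2 was above it, at 817 against 778. The log2 fold change of Nlgn2 was 0.10 (-0.02 to 0.23). That value was 0.028 without Braf+/+ replicate 4, and so without the contrast of series B. It was 0.18 without Nestin;BrafKE/+ replicate 1, and so without that of series A. Nlgn1, found at excitatory synapses, and Nlgn3 stood at -0.02 and 0.00. Of the summed neuroligin level per kb Nlgn2 took 68.3% ± 1.06 (SD, n = 4) in the mutant and 66.7% ± 1.98 (SD, n = 5) in the controls. Another annotated gene, Gm21986, shares 3823 exonic bases with Nlgn3 on the same strand, so some of its reads cannot be assigned with certainty.

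The Lrrtm genes encode leucine-rich repeat partners of neurexins. Lrrtm3 had the highest log2 fold change of all members, 0.46, with a 95% interval from -0.09 to 1.01 and an adjusted p of 0.368 in limma. It stood at 698, 408, 494 and 447 normalised counts in the mutant libraries, and at 239, 284, 510, 454 and 409 in the controls. Nestin;BrafKE/+ replicate 1 was the highest and Braf+/+ replicates 1 and 2 the lowest, and these 3 belong to series A, with a difference of 1.09; series B and C gave -0.02 and 0.13. Within series A, Braf+/+ replicates 1 and 2 shared a name prefix, and Nestin;BrafKE/+ replicate 1 and Braf+/+ replicate 3 shared another. With 4 name prefixes in place of the 3 series the log2 fold change of Lrrtm3 was 0.17. In the main fit it was 0.045 without Nestin;BrafKE/+ replicate 1, and so without the contrast of series A. It was 0.71 without Braf+/+ replicate 4, and so without that of series B. Lrrtm4 had a log2 fold change of -0.26 (95% interval -0.56 to 0.04), lower in series A and B (-0.57 and -0.35) and higher in C (0.34). Dropping either library of series C brought Lrrtm4 to -0.47 and just past the threshold, at a limma adjusted p of 0.0499 without the mutant library and 0.0484 without the control. Leaving out Nestin;BrafKE/+ replicate 1, and so the contrast of series A, instead shrank it to -0.057 (limma adjusted p = 0.897). Lrrtm1 and Lrrtm2 stood at 0.12 and -0.02.

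Among the secreted and shed organizers, the neuronal pentraxins Nptx1 and Nptxr were lower and the cerebellins Cbln1 and Cbln4 higher, and none passed. Pentraxins gather AMPA receptors from outside the membrane, and cerebellins are secreted partners of neurexins. Nptx1 was 10114, 11542, 10019 and 10032 normalised counts in the mutant libraries, and 12635, 12051, 12509, 11516 and 12755 in the controls. Nestin;BrafKE/+ replicate 2 alone reached the control range, just above Braf+/+ replicate 4, the control of its series. Nptx1 differed by -0.24 ± 0.06 (SE) on the log2 scale (limma adjusted p = 0.0635), and series A, B and C gave -0.29, -0.10 and -0.35. It passed when Nestin;BrafKE/+ replicate 2 was left out (limma adjusted p = 0.0241). Its limma adjusted p reached 0.259 without Nestin;BrafKE/+ replicate 1, and so without the contrast of series A.

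Nptxr, the membrane-bound pentraxin, was the most abundant of the group per length, at 3354 normalised counts per kb of exon. It stood at 15690, 18022, 15891 and 16319 normalised counts in the mutant libraries and at 18830, 18183, 17898, 17052 and 18186 in the controls. Again Nestin;BrafKE/+ replicate 2 lay among the controls and the other 3 mutant libraries below them. Nptxr differed by -0.13 ± 0.06 (SE) on the log2 scale (limma adjusted p = 0.255). The difference was -0.073 (limma adjusted p = 0.659) without Nestin;BrafKE/+ replicate 1, and so without the contrast of series A. Another gene, Npcd, shares 890 exonic bases with it on the same strand. Cbln1 was a low transcript, between 111 and 158 normalised counts in the mutant and between 68.6 and 134 in the controls, and its log2 fold change of 0.41 had a 95% interval from -0.08 to 0.90. Series A, B and C gave 0.34, 0.07 and 0.97 for Cbln1, and leaving out either library of series C brought the log2 fold change to 0.21. Cbln4 stood at 0.16 (-0.19 to 0.52).

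**Figure D3:**
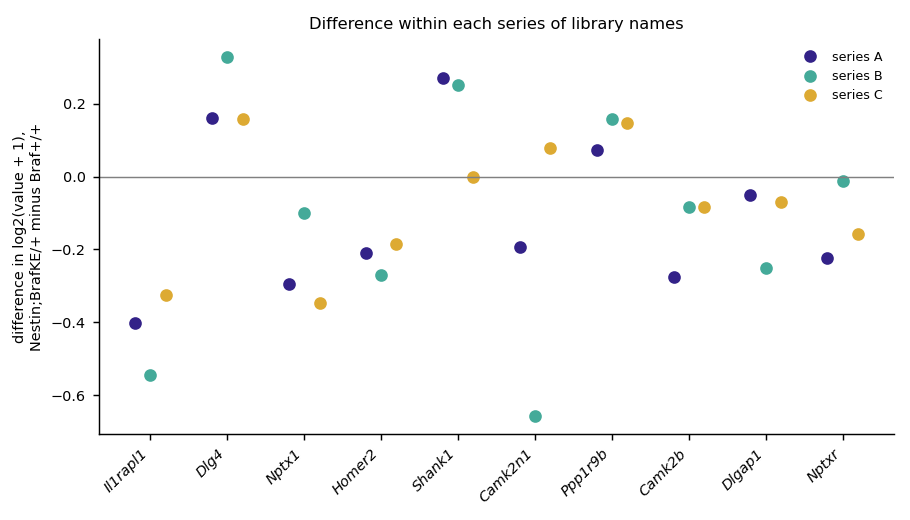
Difference in log2(value + 1) between Nestin;BrafKE/+ and Braf+/+ (y axis) within the 3 series of library names, for the same 10 genes (x axis). The 3 differences share a sign for Il1rapl1, Dlg4, Nptx1, Homer2, Ppp1r9b, Camk2b, Dlgap1 and Nptxr, whereas Camk2n1 was higher in series C (0.08) and lower in the other 2 series.

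A wider list of 57 other postsynaptic and adhesion genes held 30 that were higher in the mutant, and 3 of the 57 passed (5.26%, against 2.88% of all genes). The list was written by function and has no test of its own. Nptx2, an activity-regulated pentraxin of the same family as Nptx1 and Nptxr, rose from 463 ± 47.3 (SD, n = 5) to 667 ± 37.5 (SD, n = 4) normalised counts. Its values were 670, 702, 680 and 614 in the mutant libraries and 481, 399, 507, 428 and 500.4 in the controls, without overlap. The rise of Nptx2 was 0.53 ± 0.10 (SE) on the log2 scale (limma adjusted p = 0.0187), opposite in sign to those of Nptx1 and Nptxr. Lin7c, which encodes a small partner of the MAGUK Cask, fell by 0.27 on the log2 scale (limma adjusted p = 0.0322). Akap5, which encodes the anchor of protein kinase A and calcineurin at Dlg4, fell by 0.25 on that scale (limma adjusted p = 0.0333), from between 1677 and 1776 in the controls to between 1384 and 1521 in the mutant. When a library was left out, adjusted p-values ran up to 0.128 for Nptx2, 0.175 for Lin7c and 0.137 for Akap5, and none of the 3 passed without Nestin;BrafKE/+ replicate 1, Nestin;BrafKE/+ replicate 3 or Braf+/+ replicate 4. Nptx2 passed in the other 6 such fits, Lin7c in 4 of 9 and Akap5 in 1 of 9, without Braf+/+ replicate 3. These fits are not like checks of single libraries. Those without Nestin;BrafKE/+ replicate 1 or Braf+/+ replicate 4 lose the contrast of series A or B. Dropping either library of series C gave the same fold change, 0.61 for Nptx2 and -0.30 for Lin7c.

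**Figure D4:**
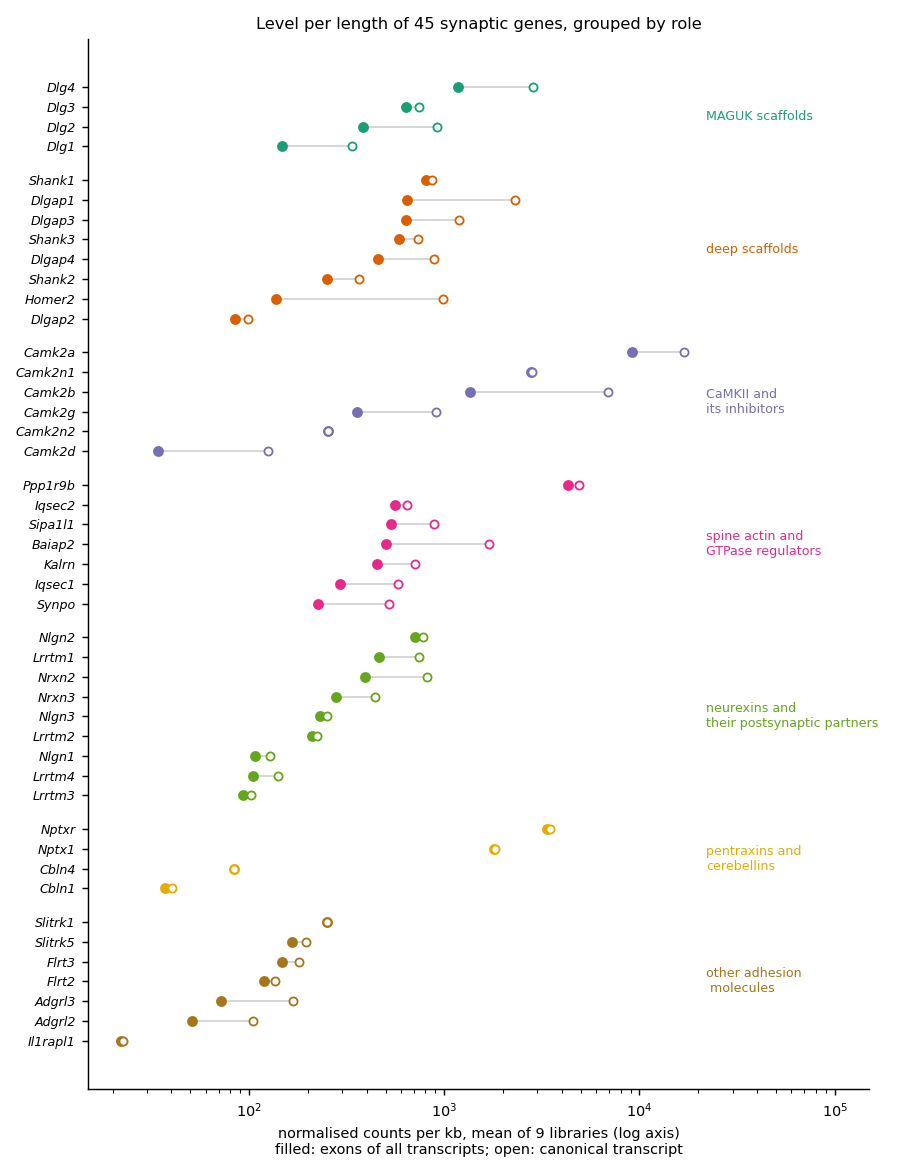
Mean of the 9 libraries in normalised counts per kb (x axis, log scale) for the 45 genes, grouped by role; filled dots divide by the exons of all transcripts and open dots by the canonical transcript. Camk2a is highest at 9144 per kb of exon and Il1rapl1 lowest at 22.1, and the open and filled dots lie far apart for Homer2 and Camk2b.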

How the data were processed

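Stranded mRNA libraries were made from 9 hippocampi. Reads were trimmed (Trim Galore), aligned to GRCm39 (STAR) and quantified (Salmon) by the authors, who also adjusted for batches that are not named. The deposited values are a signal in normalised counts, divided by size factors. They are whole multiples of 1 step per library and are not sequenced reads, so the depth is unknown, precision rests on how far libraries of 1 genotype differ, and no count model was used. All value columns were used.

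For genes whose mean reached 10, log2(value + 1) was fitted in limma 3.58.1 (R 4.3.3; lmFit, then eBayes with a trend) on genotype and the series in the library names. Benjamini-Hochberg adjustment of the two-sided p-values covered 16196 genes, and the threshold was 0.05. Fold changes on this scale understate those of low genes. Exact permutation tests were run for single members, unadjusted for their number. Within-series differences are of log2(value + 1). The steps were tested on simulated data. Same-numbered animals were not paired in the labels. The limma p-values rest on the spread between these animals that remained after the authors' batch adjustment and the series term.

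Genes were named by rule: members past the threshold and those with the next smallest p, to 10 in all, shown in every library; in each role the highest and lowest fold change and the highest level; and genes of the wider list past the threshold. Other members are given by range or fold change. Members and lists were chosen with earlier results of these data known. Exonic lengths, coordinates and overlaps came from Gencode vM39 on GRCm39, in which 18179 of 18275 gene IDs were found. Marker lists covered excitatory and inhibitory neurons, dentate granule, CA1, CA2 and CA3 neurons, astrocytes, oligodendrocytes, microglia, endothelium, choroid plexus, thalamus and habenula, striatum and blood. The alternatives were pseudocounts of 0.5 and 8, a minimum mean of 50 or none, quantile normalisation, equal totals, no series term, 4 name prefixes, array quality weights, a block for the replicate number and leaving out each library. The canonical transcript's length was added after the data had been seen. Python 3.11.15 with pandas 2.3.3 and matplotlib 3.10.9 made the tables and figures.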

Additional observations from a re-analysis of the deposited data

Results flagged for a closer look

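In 118 groups of values, 45 genes and 14 lists in each genotype, 13 held a library that stood apart from the rest, where chance gives about 1 in 20. In Nestin;BrafKE/+ replicate 2, Camk2a stood at 106029 normalised counts (the others from 84100 to 87772), Nptx1 at 11542 (10019 to 10114), Nrxn2 at 5719 (5408 to 5452), Dlg1 at 2020 (2162 to 2189) and the summed CA1 genes at 14849 (14473 to 14517). In Braf+/+ replicate 4, Flrt2 stood at 1245 (909 to 1002) and Adgrl2 at 1162 (914 to 959). In Braf+/+ replicate 1, Camk2n2 stood at 578 (673 to 692) and the summed CA2 and CA3 genes at 13799 (12424 to 12635). In Braf+/+ replicate 3, Ppp1r9b stood at 22758 (21287 to 21463). In Braf+/+ replicate 2, the summed choroid plexus genes stood at 391947 (4475 to 113274), the summed CA1 genes at 12468 (11630 to 11869) and the summed blood genes at 3579 (3180 to 3292).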

How the results depend on the processing

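The count of members past the threshold was 1, and it was 0 with a pseudocount of 8, without the filter, with quantile normalisation, with equal totals, with 4 name prefixes and with array quality weights. It was 2 with a minimum mean of 50 and 6 without the series term (Dlg4, Shank1, Homer2, Ppp1r9b, Nptx1 and Il1rapl1), and it ran from 0 to 2 when a library was left out. For all genes the count of 466 became 2260 without the series term, 165 with 4 name prefixes and 258 with array quality weights, and ran from 42 to 369 when a library was left out. For the wider synaptic list the count of 3 became 9 without the series term, 0 with 4 name prefixes and 1 with array quality weights, and ran from 0 to 3 when a library was left out. The causes were not tested. With the replicate block in place of the series, 6 members, 7 genes of the wider list and 1405 of all genes passed; the members were Dlg4 (adjusted p = 0.0238), Shank1, Homer2, Camk2n1, Nptx1 and Il1rapl1. The labels give no pairing, the deviations of same-numbered animals correlated at -0.39, -0.08, 0.07 and 0.41 for numbers 1 to 4, and not every sample correlated best with its own number, so the numbers were not read as pairs. Of 200 log2 fold changes of 20 named members under 10 alternatives with all libraries, all kept their direction. The 2 changes of the filter alter only which genes are tested, so they could not move these fold changes. Of 180 with a library left out, 176 kept it, where dropping either library of series C gave the same fold changes. The 4 others were for Camk2a (-0.0785 to 0.16), Camk2n2 (-0.00891 to 0.12), Flrt2 (-0.0789 to 0.35) and Slitrk1 (-0.0153 to 0.15), given as lowest to highest value. The adjusted p of Il1rapl1 ran from 0.00271 without the series term to 0.0897 with array quality weights, and it passed in 4 of those 10 alternatives.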

Other observations

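The remaining marker lists are given as counts and were not tested as sets. Over all genes tested 2.88% passed, and 18.5% had an unadjusted p under 0.05 in limma. Of 8 excitatory neuron genes 5 were higher in the mutant and 1 passed, and of 10 inhibitory neuron genes 8 were higher and 1 passed. Of 7 dentate granule genes 3 were higher and 3 passed, in either direction, and of 8 CA2 and CA3 genes 3 were higher and 0 passed (5 at an unadjusted p under 0.05 in limma). Of 9 microglia genes 8 were higher and 0 passed (4 at an unadjusted p under 0.05 in limma), and of 5 blood genes 5 were higher and 0 passed (4 at an unadjusted p under 0.05 in limma). Endothelial genes were higher in 4 of 6 and thalamus and habenula genes in 3 of 6, and 0 passed in either list, with 0 at an unadjusted p under 0.05 in limma. Of 7 choroid plexus genes 0 were higher and 0 passed (2 at an unadjusted p under 0.05 in limma). Of 7 striatum genes 4 were higher and 1 passed, Ppp1r1b, which was lower.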
